A study of Arabidopsis thaliana with 8 samples.

Results

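Trans-acting siRNA (TAS) genes make noncoding transcripts that a microRNA (miRNA) cuts and that are then diced into phased small RNAs (sRNAs). The 8 TAS genes of the Arabidopsis thaliana annotation, TAS1A (AT2G27400), TAS1B (AT1G50055), TAS1C (AT2G39675), TAS2 (AT2G39681), TAS3 (AT3G17185), TAS3B (AT5G49615), TAS3C (AT5G57735) and TAS4 (AT3G25795), were taken by their locus identifiers from the 33433 genes of each deposited table. sRNAs were sequenced from endosperm, the seed tissue that nourishes the embryo, 7 days after pollination of Ler mothers by Col-0 fathers. The 8 libraries were of 3 genotypes. In nrpd1-/- endosperm (3 libraries) both parents were homozygous mutant. In mat nrpd1+/- endosperm (3 libraries) the Ler mother was nrpd1-/- and the Col-0 father was wild type, and in pat nrpd1+/- endosperm (2 libraries, replicates 2 and 3) the Col-0 father was nrpd1-/- and the Ler mother was wild type. All mutant parents carried the T-DNA allele nrpd1a-4, made in Col-0 and crossed repeatedly into Ler, so that Ler mutant mothers may carry Col-0 chromatin around NRPD1. NRPD1 is the largest subunit of RNA polymerase IV (Pol IV). Each library pooled the endosperm of about 100 seeds, and in such bulk tissue fewer cells making an sRNA and less of it per cell cannot be told apart. Wild-type endosperm was not analysed here.

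Pol IV transcripts are copied into double strands by RDR2 and diced by DCL3, mainly into 24-nt siRNAs that guide DNA methylation. Trans-acting siRNAs come from another route. The TAS transcript is cut by an miRNA bound to an Argonaute, RDR6 with SGS3 copies the cut RNA, and DCL4 dices it from the cut site into mainly 21-nt siRNAs, with DCL2 and DCL3 able to make 22-nt and 24-nt products from the same kind of substrate. TAS1 and TAS2 siRNAs act on mRNAs of pentatricopeptide repeat (PPR) proteins, TAS3 siRNAs act on the auxin response factor mRNAs ARF2, ARF3 and ARF4, and TAS4 siRNAs act on MYB factors of anthocyanin synthesis.

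The triggers and their sites define the groups in which the TAS genes are described, and so are shown first. The mature sequences and sites were read from the RefSeq TAIR10.1 annotation and genome. The capitals in the miRNAs mark the seed, bases 2 to 8, and miR390a-5p and miR390b-5p (chr2:16061971-16061991 and chr5:23636961-23636981, both plus strand) have the same sequence. miR173-5p, at chr3:8236161-8236182, triggers TAS1A, TAS1B, TAS1C and TAS2, and miR390-5p triggers TAS3, TAS3B and TAS3C.
miR173-5p: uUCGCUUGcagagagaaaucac
miR390a-5p and miR390b-5p: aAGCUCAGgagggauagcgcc

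In each TAS gene the sense strand of the best match to the trigger is printed with capitals where it departs from perfect Watson-Crick pairing. All these sites lie in exons of noncoding transcripts. The sites of TAS1A (chr2:11722081-11722102, minus strand), TAS1C (chr2:16537890-16537911, minus strand) and TAS2 (chr2:16539991-16540012, minus strand) each had 1 mismatch and 1 G:U pair, and TAS1B (chr1:18549660-18549681, minus strand) had 2 mismatches and 1 G:U pair. TAS1B is the copy whose size classes differed most between genotypes below.
TAS1A: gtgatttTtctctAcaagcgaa
TAS1B: gtgatttTtctcAAcaagcgaa
TAS1C: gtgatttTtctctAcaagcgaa
TAS2: gtgatttTtctctCcaagcgaa

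TAS3 (chr3:5861491-5862437, plus strand) holds a pair of miR390 sites, the 5′ one at chr3:5862099-5862119 with 1 mismatch and 4 G:U pairs and the 3′ one at chr3:5862343-5862363 with 5 mismatches. TAS3 is known to be cut at the 3′ site only, and the siRNAs that act on ARF mRNAs lie in the 21-nt register upstream of that cut. Of the first 10 register positions, the 7th (chr3:5862207-5862227) and the 8th (chr3:5862186-5862206) were each 3 bases away from full pairing with their best match in ARF3 (ETT), ARF4 or ARF2, and the others were at least 5 bases away. In ARF4 a match in a coding exon (chr5:24309719-24309739) is shown with its differences from the 8th position in capitals.
TAS3, 5′ site: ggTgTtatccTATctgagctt
TAS3, 3′ site: TTGTctatccctcctgagctA
TAS3 register position 7: tcttgaccttgtaagacccca
TAS3 register position 8: tcttgaccttgtaaggccttt
ARF4 site: TaaggTcttGcaaggtcaaga

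TAS1C and TAS2 are neighbours on chromosome 2, at chr2:16537288-16538277 and chr2:16539384-16540417. TAS1A is at chr2:11721539-11722468, TAS1B at chr1:18549204-18550042, TAS3B at chr5:20134200-20134786, TAS3C at chr5:23394005-23394500 and TAS4 at chr3:9417551-9418705. TAS1A and TAS1B share 55 of their 21-base words, and 8.46% of the 21-base words of TAS1A, 9.52% of those of TAS1B and 5.05% of those of TAS1C recur elsewhere in the genome, against 0.493% for TAS2 and 0.108% for TAS3. The authors kept 1 best alignment of each read, so reads from shared words may be placed at either copy. TAS1B also overlaps the miRNA gene MIR5636 over 78 bp, and TAS1C overlaps AT2G39670 over 31 bp.

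Depth differed by size class and genotype. Reads assigned to genes numbered 950211 to 2192728 per library at 21 nt, 187467 to 765564 at 22 nt, 106654 to 749454 at 23 nt and 281070 to 3274885 at 24 nt, and pat nrpd1+/- replicate 2 was the deepest library in each class. In nrpd1-/- the 21-nt table held 2099 entries of its own, understood to be only part of the genes. The authors may have selected them for a difference. TAS3 was the only TAS gene among them, so the other TAS genes have no 21-nt values there. Over all other genes pooled, 24-nt reads made up 48.2 to 50.7% of the 22- to 24-nt reads in nrpd1-/- libraries, 60.9 to 63.3% in mat nrpd1+/- libraries and 66.0 to 68.6% in pat nrpd1+/- libraries. Over the genes tested in each comparison, the choice of library sizes moved the median log2 fold change. It moved by 1.09 to 4.24 between nrpd1-/- and a heterozygote and by 0.46 to 1.30 between the heterozygotes. Fold changes are therefore given with trimmed mean of M values (TMM) scaling and read beside the other scalings, and beside shares within a gene, which need none.

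The order of the TAS genes by read number was TAS2, TAS1C, TAS1A, TAS1B, TAS3 and TAS3C at 21 nt in mat nrpd1+/- libraries, and TAS4 and TAS3B had almost no reads. Per kilobase of gene, the mean 21-nt read number in mat nrpd1+/- libraries was 36184 for TAS2, 20936 for TAS1C, 14114 for TAS1A, 1707 for TAS1B, 413 for TAS3 and 112 for TAS3C. In pat nrpd1+/- libraries the means were 64425 for TAS2, 33001 for TAS1C, 26812 for TAS1A and 2804 for TAS1B, and there TAS3C (341) stood above TAS3 (230). In mat nrpd1+/- no gene's highest library reached the lowest library of the gene before it in the order. In pat nrpd1+/- the read numbers of TAS1C (35334 and 30007) and TAS1A (30378 and 19493) met, as did those of TAS3 (249 and 186) and TAS3C (152 and 186). Together, the TAS genes held 7.52 ± 0.721% (SD, n = 3) of the 21-nt reads in genes for mat nrpd1+/- and 8.0 ± 2.19% (SD, n = 2) for pat nrpd1+/-.

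**Figure D1:**
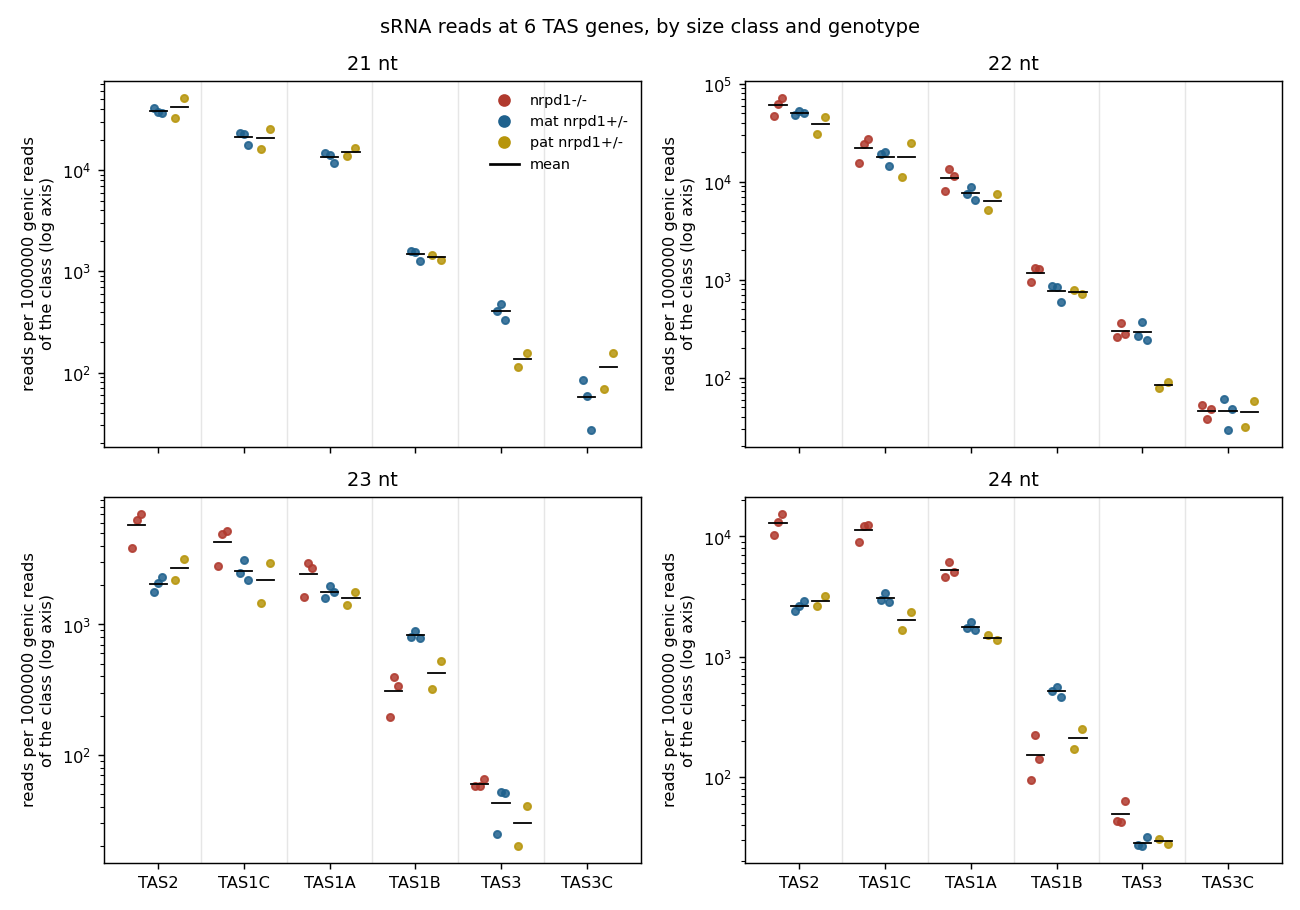
Reads at 6 TAS genes per 1000000 genic reads of the same size class and library, on a log axis, in 4 panels by size class. Points are libraries, lines are means, and genotypes run nrpd1-/-, mat nrpd1+/- and pat nrpd1+/-; TAS3C is drawn only at 21 and 22 nt, and nrpd1-/- at 21 nt is not drawn. TAS1B is the gene whose nrpd1-/- points lie below those of mat nrpd1+/- at 23 and 24 nt, while those of TAS2 lie above.

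TAS4 and TAS3B gave too few reads for any comparison. TAS4, whose trigger miR828 also had no entry in the tables, had at most 5 reads of 21 nt and 6 of 24 nt in a library, and 0 in each of the 3 nrpd1-/- libraries at 24 nt against 4, 0 and 2 in mat nrpd1+/-. A count of 0 allows up to 3 reads per library, so no difference was detectable at this depth. TAS3B, another copy of the TAS3 family, had 1 read of 24 nt in each nrpd1-/- library, 5, 9 and 8 in mat nrpd1+/- and 12 and 6 in pat nrpd1+/-. The nrpd1-/- libraries were the lowest and did not overlap with the others, and neither gene passed the filter on low counts in any class.

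The comparison of mat nrpd1+/- with pat nrpd1+/- asks whether TAS sRNAs depend on which parent lacked Pol IV. At 21 nt, TAS3 was higher and its shorter relative TAS3C was lower in mat nrpd1+/- than in pat nrpd1+/-, while the miR173-triggered genes did not pass the test. Of the 6 TAS genes that passed the filter at 21 nt, 1 rose and 1 fell by edgeR's quasi-likelihood test (adjusted p of 0.05 or less and at least 2-fold), against 13.1% of all genes tested called in either direction (3.48% higher, 9.65% lower). Their median log2 fold change was -0.41, beside 0.07 over all 3131 genes tested.

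TAS3 had 405, 447 and 321 reads of 21 nt in the 3 mat nrpd1+/- libraries and 249 and 186 in the pat nrpd1+/- libraries, although the pat nrpd1+/- libraries were deeper. Every mat nrpd1+/- library was above both pat nrpd1+/- libraries. Scaled to 1000000 reads (CPM), mat nrpd1+/- averaged 360 ± 41.0 (SD, n = 3) and pat nrpd1+/- 157 ± 12.3 (SD, n = 2), a log2 fold change of 1.20 ± 0.28 (SE; edgeR adjusted p = 0.0122). Under the 6 other settings the log2 fold change ran between 1.13 and 1.57 with adjusted p between 0.000353 and 0.134, and the call was lost only with a replicate block. It was also lost without mat nrpd1+/- replicate 1 (adjusted p = 0.0651) and without mat nrpd1+/- replicate 2 (0.107), where the log2 fold change was 1.19 and 1.04.

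TAS3C had 85, 56 and 26 reads of 21 nt in mat nrpd1+/- and 152 and 186 in pat nrpd1+/-. These ranges do not overlap, but the mat nrpd1+/- libraries spread widely. The log2 fold change of TAS3C was -1.35 ± 0.40 (SE; edgeR adjusted p = 0.0406), and 3 of the 6 other settings kept the call, with adjusted p between 0.00436 and 0.168. The call was lost without mat nrpd1+/- replicate 2 (adjusted p = 0.139), mat nrpd1+/- replicate 3 (0.108) or pat nrpd1+/- replicate 3, where the log2 fold change of -0.96 was under 2-fold.

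The 4 genes triggered by miR173 carried most TAS reads. TAS2 had 41421, 35787 and 35035 reads of 21 nt in mat nrpd1+/- and 72048 and 61183 in pat nrpd1+/-. TAS1B, the weakest of the 4, had 1590, 1484 and 1223 in mat nrpd1+/- and 3181 and 1524 in pat nrpd1+/-. Apart from TAS1B, both of the deeper pat nrpd1+/- libraries were above all mat nrpd1+/- libraries at these genes. After scaling, the log2 fold changes were -0.56 ± 0.24 for TAS1A, -0.50 ± 0.24 for TAS2, -0.33 ± 0.24 for TAS1C and -0.30 ± 0.26 for TAS1B (SE; edgeR adjusted p from 0.160 to 0.501). With reads in genes as library sizes, TAS1B and TAS1C turned to 0.10 and 0.04.

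The reads of the triggers were taken from the same 21-nt class. miR173-5p is 22 nt long, and the 22-nt class had no miRNA entries. Its values and all ratios to it therefore count 21-nt reads at its locus, not the full-length miRNA. miR173-5p had 937, 1050 and 790 reads in mat nrpd1+/- and 1774 and 1251 in pat nrpd1+/-, a log2 fold change of -0.35 (edgeR adjusted p = 0.439). The reads of miR390-5p, summed over its 2 genes, numbered 963, 1188 and 1085 in mat nrpd1+/- and 742 and 198 in pat nrpd1+/-. The pat nrpd1+/- replicates differed among themselves by more than any mat nrpd1+/- pair, and both were below all mat nrpd1+/- libraries. miR390a-5p and miR390b-5p rose by 1.64 and 1.74 on the log2 scale (edgeR adjusted p = 0.0134 and 0.00718), and since their sequences are the same these are one measurement split between loci. Of the 5 trigger entries that passed the filter, these 2 were higher and none was lower.

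The ratio of TAS reads to miR173-5p reads of the same library does not depend on library size (a measure chosen after the values were seen). TAS3 had 43.2, 42.6 and 40.6 reads per 100 miR173-5p reads in mat nrpd1+/- and 14 and 14.9 in pat nrpd1+/-. The groups lay far apart relative to their spread, 42.1 ± 1.35 (SD, n = 3) against 14.5 ± 0.588 (SD, n = 2), a 2.92-fold difference, and the exact 2-sided permutation p was 0.2, the smallest that 3 against 2 libraries allow. miR390-5p had 103, 113 and 137 reads per 100 miR173-5p reads in mat nrpd1+/- and 41.8 and 15.8 in pat nrpd1+/-, a 4.08-fold difference. The ratios of TAS1A, TAS1B, TAS1C and TAS2 to miR173-5p overlapped between the genotypes, with mat over pat folds of 0.871, 1.03, 1.02 and 0.913. That of TAS3C overlapped as well, at 9.07, 5.33 and 3.29 per 100 in mat nrpd1+/- and 8.57 and 14.9 in pat nrpd1+/- (exact permutation p = 0.4). Per 100 miR390-5p reads, TAS3 had 42.1, 37.6 and 29.6 reads in mat nrpd1+/- and 33.6 and 93.9 in pat nrpd1+/-, so that the groups overlapped.

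In nrpd1-/- libraries, TAS3 had 355, 504 and 322 reads of 21 nt. These were 27.4, 28.9 and 25.3 per 100 miR173-5p reads, between the other genotypes and overlapping with neither. miR390-5p reached 200, 150 and 131 per 100 miR173-5p reads in nrpd1-/-, overlapping with mat nrpd1+/- and above both pat nrpd1+/- libraries. The TAS3, miR390-5p and miR173-5p values of nrpd1-/- all come from the 2099 entries of the partial 21-nt set, which may have been kept for a difference. The miR173-5p denominator may thus not be a neutral scale in nrpd1-/-, and these values are described without a test.

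**Figure D2:**
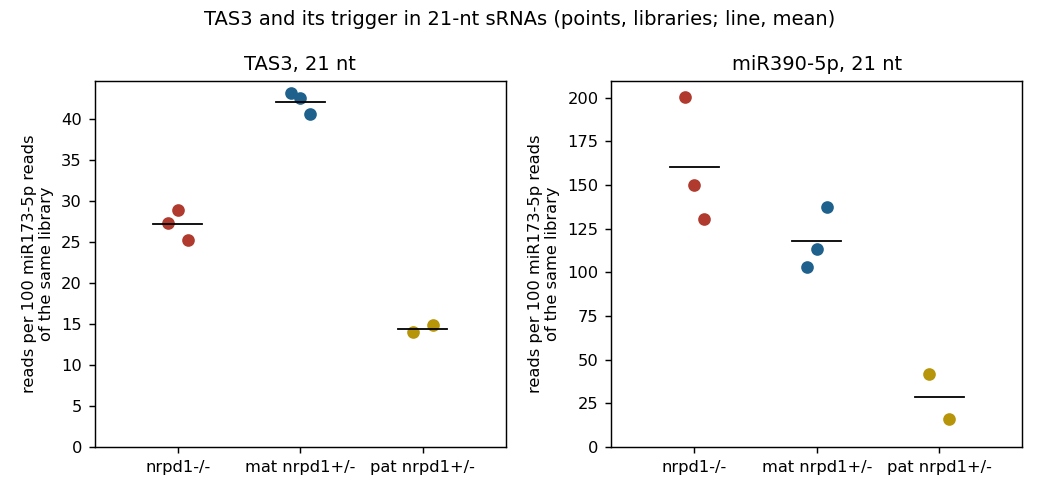
TAS3 reads (left) and miR390-5p reads (right) of 21 nt per 100 miR173-5p reads of the same library. The miR173-5p reads are also those of 21 nt, although the miRNA is 22 nt long. In nrpd1-/- the reads of TAS3, miR390-5p and miR173-5p all come from the partial set of 21-nt entries. Points are libraries of nrpd1-/-, mat nrpd1+/- and pat nrpd1+/-, from left to right, and lines are means; for TAS3 the pat nrpd1+/- libraries lie at 14 and 14.9, below nrpd1-/- at 25.3 to 28.9 and mat nrpd1+/- at 40.6 to 43.2.

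At 22 nt, 1 of 6 TAS genes tested was called between the heterozygotes, against 11.9% of genes in either direction (2.34% higher and 9.57% lower in mat nrpd1+/-). TAS1B had 199, 172 and 124 reads in mat nrpd1+/- and 605 and 214 in pat nrpd1+/-. All mat nrpd1+/- libraries were lower, but pat nrpd1+/- replicate 2 alone stood far above. Its log2 fold change was -1.46 ± 0.35 (SE; edgeR adjusted p = 0.0278). This value moved with the scaling, to 0.01 with genic reads as library sizes and -0.66 with all reads of the class, and the call was kept in 2 of 6 settings (adjusted p from 0.0363 to 0.978). It was lost without mat nrpd1+/- replicate 1 (log2 fold change -1.39, adjusted p = 0.0979), mat nrpd1+/- replicate 2 (-1.38, 0.115) or pat nrpd1+/- replicate 2 (-0.78, 0.0868). With TMM scaling the 6 TAS genes had a median log2 fold change of -1.15, beside 0.01 over all 2226 genes tested. TAS3 (0.37) was then the only one above 0. Over 6 scalings or fits, TMM included, TAS3 ran from 0.37 to 1.79 and was called higher in 2.

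At 23 nt, TAS2 was the 1 gene called of 5 tested, against 10.9% of genes in either direction (3.28% higher, 7.6% lower). TAS2 had 844, 804 and 724 reads in mat nrpd1+/- and 1638 and 943 in pat nrpd1+/-. The log2 fold change was -1.08 ± 0.25 (SE; edgeR adjusted p = 0.0251), and none of the 6 other settings kept the call (log2 fold change from -1.08 to -0.39, adjusted p from 0.0178 to 0.413). It was lost without mat nrpd1+/- replicate 1 (adjusted p = 0.149), mat nrpd1+/- replicate 2 (0.162) or pat nrpd1+/- replicate 2 (log2 fold change -0.97).

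At 24 nt, none of the 5 TAS genes tested was called between the heterozygotes, against 8.13% of all genes (2.8% higher, 5.34% lower). TAS2 (log2 fold change -0.98 ± 0.19, edgeR adjusted p = 0.00413) and TAS3 (-0.95 ± 0.27, 0.0401) passed the p threshold but not the 2-fold threshold. Over 7 scalings or fits, TMM included, TAS2 ran from -0.98 to -0.13 and TAS3 from -0.95 to -0.05. TAS1B ran from 0.45 to 1.29 and was called higher in 1. TAS3 had 30, 27 and 28 reads of 24 nt in mat nrpd1+/- and 101 and 31 in pat nrpd1+/-. The highest mat nrpd1+/- library lay 1 read below the lowest pat nrpd1+/- library. Thus, between the same libraries, TAS3 had more 21-nt reads and no more 24-nt reads in mat nrpd1+/-, and the shares within the gene give this without scaling.

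Of its 21- to 24-nt reads, TAS3 had 79.6, 78.4 and 77.3% at 21 nt in mat nrpd1+/- and 58.6 and 72.7% in pat nrpd1+/-. The 24-nt reads made up 5.89, 4.74 and 6.75% of TAS3 reads in mat nrpd1+/- and 23.8 and 12.1% in pat nrpd1+/-. Both shares separated the genotypes in every library. TAS1B also differed, with 57.8, 57.9 and 61.1% of its reads at 21 nt in mat nrpd1+/- and 69.3 and 70.2% in pat nrpd1+/-, that is, in the other direction from TAS3. At TAS1A, TAS1C and TAS2 the 21-nt shares overlapped, with means of 76.2, 72.3 and 72.4% in mat nrpd1+/- and 78.7, 71.7 and 72.5% in pat nrpd1+/-. The exact permutation p of each share that did not overlap was 0.2, the smallest possible. Over the 113 share tests of the study no Benjamini-Hochberg adjusted p was under 0.337. No background of other genes was taken for shares that include 21-nt reads, so how unusual these separations are was not tested. With 21-nt reads left out, the 24-nt share of 23.4% of 551 other genes did not overlap between mat nrpd1+/- and pat nrpd1+/-.

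The comparisons of nrpd1-/- with each heterozygote ask what remains of TAS sRNAs in endosperm without Pol IV. They share the nrpd1-/- libraries and are given side by side. In raw 24-nt reads, TAS1C and TAS2 had more in nrpd1-/- than in mat nrpd1+/- and TAS1A overlapped, whereas TAS3 had fewer and TAS1B far fewer.

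TAS2 had 5002, 5283 and 4341 reads of 24 nt in nrpd1-/-, 2621, 2665 and 2585 in mat nrpd1+/- and 8640 and 3552 in pat nrpd1+/-. TAS1C had 4356, 4947 and 3481 reads in nrpd1-/-, 3268, 3457 and 2513 in mat nrpd1+/- and 5465 and 2617 in pat nrpd1+/-. TAS1A had 2244, 2454 and 1420 in nrpd1-/-, 1898, 1974 and 1465 in mat nrpd1+/- and 4971 and 1535 in pat nrpd1+/-. For TAS2 and TAS1C all nrpd1-/- libraries were above mat nrpd1+/-, although nrpd1-/- had the fewest genic 24-nt reads, and all 3 genes overlapped with pat nrpd1+/-. TAS1B had 46, 91 and 40 reads of 24 nt in nrpd1-/-, 578, 568 and 407 in mat nrpd1+/- and 566 and 280 in pat nrpd1+/-. TAS3 had 21, 17 and 18 in nrpd1-/-, 30, 27 and 28 in mat nrpd1+/- and 101 and 31 in pat nrpd1+/-. At both genes every nrpd1-/- library was below every heterozygous one, with a wide gap at TAS1B.

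With TMM scaling, 4 of the 5 TAS genes tested at 24 nt were called higher in nrpd1-/- than in mat nrpd1+/-, against 68.4% of genes called in either direction (26.9% higher, 41.5% lower). The log2 fold changes were 4.69 ± 0.31 for TAS2, 4.28 ± 0.30 for TAS1C, 4.0 ± 0.31 for TAS1A and 3.20 ± 0.30 for TAS3 (SE; edgeR adjusted p at most 1.95e-07), while TAS1B had 0.67 ± 0.32 (adjusted p = 0.0712). Against pat nrpd1+/- the same 4 were called higher, against 86.2% of genes in either direction (31.9% higher, 54.2% lower), with log2 fold changes of 3.54 ± 0.65 for TAS2, 3.90 ± 0.68 for TAS1C, 3.26 ± 0.69 for TAS1A and 2.08 ± 0.46 for TAS3 (adjusted p at most 0.000923), and TAS1B had 0.98 ± 0.52 (adjusted p = 0.0870). These calls were kept whichever single library was left out, but the call of TAS3 against pat nrpd1+/- was kept in only 3 of 7 other settings (adjusted p up to 0.564), that against mat nrpd1+/- in 5 of 7, and those of TAS1A, TAS1C and TAS2 in 6 of 7 in both comparisons.

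With TMM scaling the medians over all genes tested at 24 nt were -1.05 against mat nrpd1+/- and -1.67 against pat nrpd1+/-. The size and the direction of the TAS values depended on the scaling. Another scaling took the 24-nt reads at the mature miRNA entries as library sizes. These numbered 13118 to 38607 per library, while the same entries held 475388 to 751149 reads of 21 nt in the heterozygotes. Under it the log2 fold change against mat nrpd1+/- was 0.32 for TAS2, -0.11 for TAS1C, -0.41 for TAS1A and -1.18 for TAS3 (called lower). Against pat nrpd1+/- it was -0.39 for TAS2, -0.06 for TAS1C, -0.68 for TAS1A and -1.79 for TAS3. TAS1B was then called lower in both comparisons, at -3.72 and -3.0. Over 7 scalings or fits, TMM included, TAS1B was called lower than in mat nrpd1+/- in 4 and was above 0 in 2. Against pat nrpd1+/- it was called lower in 1 and was above 0 in 3. A change of library sizes shifts all genes together and so leaves the order of the genes as it is, with TAS1B the lowest of the 5 and TAS3 the next in both comparisons. Of all 24-nt reads in genes, nrpd1-/- had 2.97 ± 0.487% (SD, n = 3) at the TAS genes, mat nrpd1+/- 0.807 ± 0.0490% (SD, n = 3) and pat nrpd1+/- 0.661 ± 0.0812% (SD, n = 2).

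**Figure D3:**
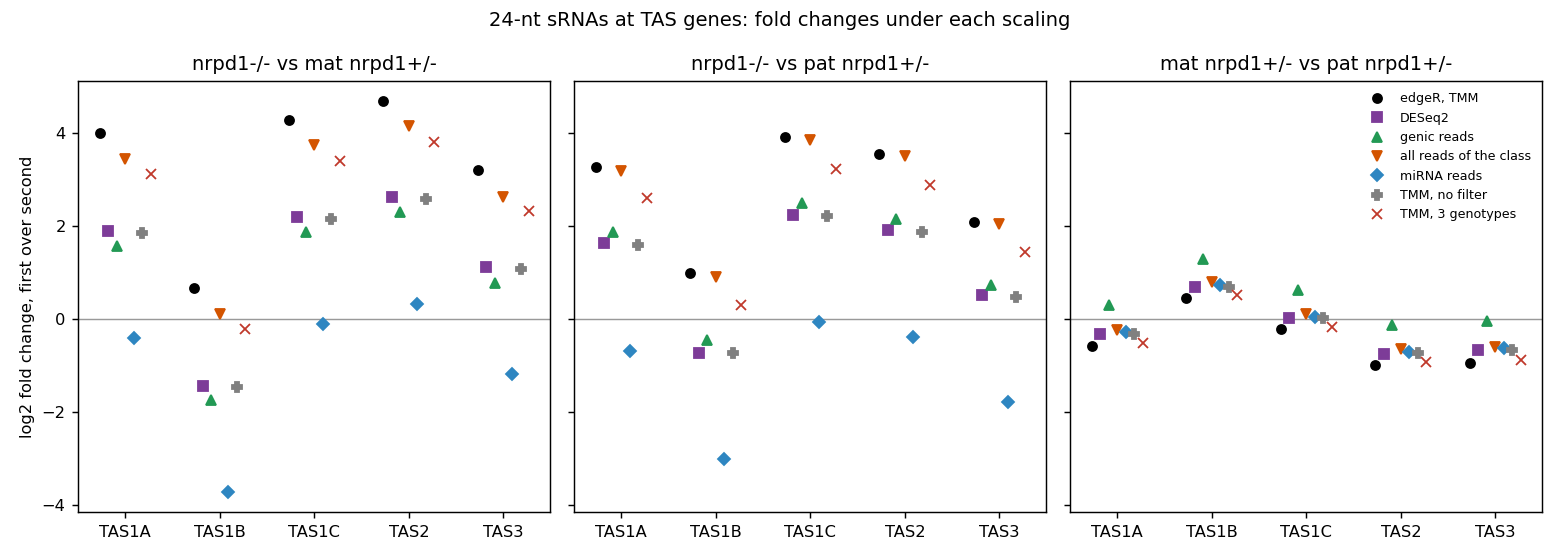
Log2 fold changes of 24-nt reads at 5 TAS genes (vertical axis) in 3 comparisons, for nrpd1-/- over mat nrpd1+/-, nrpd1-/- over pat nrpd1+/- and mat nrpd1+/- over pat nrpd1+/-. Each symbol is a scaling or fit; for nrpd1-/- over mat nrpd1+/- TAS1A spans -0.41 to 4.0 and TAS1B -3.72 to 0.67, and TAS1B is the lowest gene under each.

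At 22 nt, 2 of 6 TAS genes were called higher in nrpd1-/- than in mat nrpd1+/-, against 85.5% of genes in either direction (25.6% higher, 59.8% lower). TAS1A had 2153, 3211 and 2127 reads in nrpd1-/- and 1732, 1838 and 1343 in mat nrpd1+/-, and TAS1B had 250, 314 and 242 in nrpd1-/- and 199, 172 and 124 in mat nrpd1+/-. In both genes all nrpd1-/- libraries were above all mat nrpd1+/- libraries. The median log2 fold change over all genes tested was -3.62. The log2 fold changes were 1.20 ± 0.25 for TAS1B (edgeR adjusted p = 0.000244) and 1.09 ± 0.28 for TAS1A (adjusted p = 0.0017). TAS1C (0.88, adjusted p = 0.0111) and TAS2 (0.81, adjusted p = 0.0277) passed the p threshold without reaching 2-fold. Both calls were kept in 3 of 6 other settings, with log2 fold changes from 0.43 to 1.75 for TAS1B and from 0.33 to 1.64 for TAS1A (adjusted p from 2.27e-06 to 0.331), and both fell under 2-fold without any 1 of mat nrpd1+/- replicates 1 (0.97 and 0.75), 2 (0.91 and 0.87) and 3 (0.77 and 0.71).

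Against pat nrpd1+/-, TAS3 was the 1 gene of 6 called at 22 nt, against 46.2% of genes in either direction (7.67% higher, 38.5% lower). The median log2 fold change over all genes tested was -0.01. TAS3 had 69, 87 and 53 reads in nrpd1-/- and 60 and 27 in pat nrpd1+/-, and only after scaling did the groups separate. Its log2 fold change was 1.15 ± 0.43 (SE; edgeR adjusted p = 0.0367), with 4 of 6 other settings keeping the call (log2 fold change from 1.09 to 2.31, adjusted p from 0.000261 to 0.231). The call was lost without pat nrpd1+/- replicate 3 (0.96, adjusted p = 0.187), nrpd1-/- replicate 2 (1.13, 0.0940) or nrpd1-/- replicate 3 (1.20, 0.0573).

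At 23 nt, TAS1B was called lower and TAS2 higher in nrpd1-/- than in mat nrpd1+/-, 2 of 5 tested, against 97.2% of genes in either direction (23.1% higher, 74.1% lower). TAS1B had 37, 55 and 36 reads of 23 nt in nrpd1-/- and 385, 341 and 246 in mat nrpd1+/-. The groups lay far apart, with a log2 fold change of -1.70 ± 0.29 (SE; edgeR adjusted p = 5.22e-05), above the -5.77 median of all genes tested. The call was kept in each of 6 fits that left out 1 library and in 5 of 6 other settings, and with all reads of the class as library sizes the value turned to 0.52. TAS2 had 731, 871 and 751 reads in nrpd1-/- and 844, 804 and 724 in mat nrpd1+/-, overlapping in raw reads, and a log2 fold change of 1.20 ± 0.31 (adjusted p = 0.00191). That call was lost without mat nrpd1+/- replicate 1 (0.78), 2 (0.83) or 3 (0.78) or nrpd1-/- replicate 3 (0.84), and under 2 of 6 other settings (log2 fold change from 0.09 to 3.41). Against pat nrpd1+/-, none of 5 was called by edgeR, against 84.4% of all genes (22.6% higher, 61.8% lower). Of these 5, TAS1B had the lowest log2 fold change, -0.99 ± 0.47 (edgeR adjusted p = 0.0627), beside a median of -4.97 over all genes tested.

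The size classes within each gene can be compared without any scaling. Of the 22- to 24-nt reads of TAS1B, 24-nt reads made up 13.8, 19.8 and 12.6% in nrpd1-/-, 49.7, 52.5 and 52.4% in mat nrpd1+/- and 40.1 and 43.2% in pat nrpd1+/-. The 3 genotypes did not overlap, and nrpd1-/- was far below both heterozygotes. The 22-nt reads took 75.1, 68.3 and 76.1% in nrpd1-/-, 17.1, 15.9 and 16.0% in mat nrpd1+/- and 42.8 and 33.0% in pat nrpd1+/-. Among these 3 size classes, TAS1B was thus led by 22-nt reads in nrpd1-/- and by 24-nt reads in mat nrpd1+/-. The exact permutation p was 0.1 against mat nrpd1+/- and 0.2 against pat nrpd1+/-, the smallest possible with these numbers of libraries, and the adjusted p was 0.337.

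Its close copy TAS1A did not share this. The 24-nt share of TAS1A was 47.7, 40.4 and 37.0% in nrpd1-/-, 43.2, 43.2 and 43.5% in mat nrpd1+/- and 49.9 and 35.9% in pat nrpd1+/-, with full overlap. For TAS1C, nrpd1-/- averaged 43.2 ± 5.01% (SD, n = 3), mat nrpd1+/- 38.8 ± 2.09% (SD, n = 3) and pat nrpd1+/- 30.1 ± 8.50% (SD, n = 2). TAS2 was higher in nrpd1-/-, at 27.5, 25.2 and 23.3%, than in mat nrpd1+/-, at 18.0, 18.6 and 18.7%, and overlapped with pat nrpd1+/- at 25.3 and 19.6%. The median 24-nt share was also taken over the other genes with at least 20 reads of 22 to 24 nt in the library. It was 32.3 to 38.1% in nrpd1-/- (852 to 1393 genes), 61.9 to 66.9% in mat nrpd1+/- (5033 to 6203) and 67.8 to 73.5% in pat nrpd1+/- (4426 to 11042). The gene sets differed, so these medians do not show a change within genes. Among 551 other genes that met the minimum in every library, 14.2% had all nrpd1-/- libraries above mat nrpd1+/- and 14.5% below. This set leaves out genes that kept few reads in nrpd1-/-, so it does not stand for all genes with sRNAs in the heterozygotes. Against pat nrpd1+/- the shares were 10.9% and 19.2%. By this share of 22- to 24-nt reads, TAS1B was the one of the 5 TAS genes whose nrpd1-/- libraries all lay below all libraries of both heterozygotes. How many other genes lay below both was not counted.

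TAS3 had a 24-nt share of 20.8, 15.2 and 23.1% in nrpd1-/-, 28.8, 22 and 29.8% in mat nrpd1+/- and 57.4 and 44.3% in pat nrpd1+/-. The pat nrpd1+/- libraries were above all others, and nrpd1-/- overlapped with mat nrpd1+/-. As a share of 21- to 24-nt reads, which for nrpd1-/- exists at TAS3 alone, 24-nt reads made up 4.61, 2.76 and 4.50% in nrpd1-/-, below the 4.74 to 6.75% of mat nrpd1+/- and below both pat nrpd1+/- libraries without overlap. The TAS3 values of 22 to 24 nt rest on 70 to 176 reads per library, so counting error is largest here. The 23-nt share was lower in nrpd1-/- than in mat nrpd1+/- without overlap at all 5 genes, with means of 6.94 against 16.9% for TAS1A, 11.5 against 32.1% for TAS1B, 5.98 against 12.7% for TAS1C, 4.07 against 5.55% for TAS2 and 9.0 against 14.9% for TAS3 (nrpd1-/- first in each pair, exact permutation p = 0.1 each), against 21.1% of 551 other genes that met the same read minimum. The same share lay between these values in pat nrpd1+/-, at means of 11.4, 20.4, 7.59, 5.0 and 12.8%. The 24-nt share did not overlap between nrpd1-/- and mat nrpd1+/- in 2 of 5 TAS genes (28.7% of those 551 genes), between nrpd1-/- and pat nrpd1+/- in 3 of 5 (30.1%) and between mat nrpd1+/- and pat nrpd1+/- in 4 of 5 (23.4%).

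**Figure D4:**
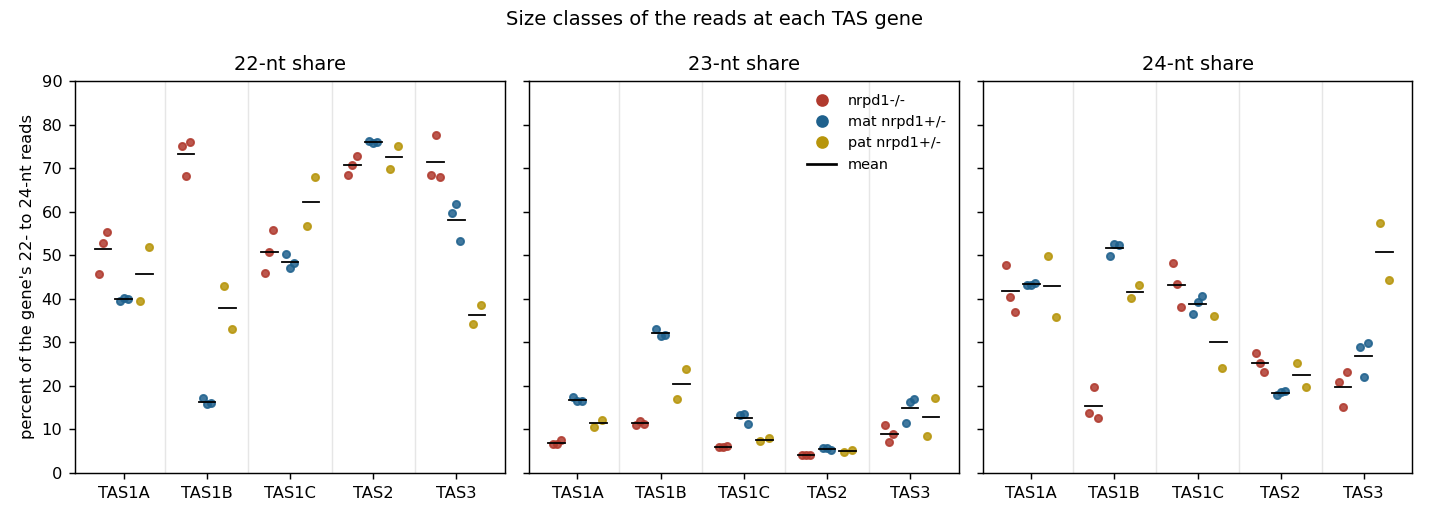
Share of 22-, 23- and 24-nt reads (panels) in the 22- to 24-nt reads of 5 TAS genes, in percent. Points are libraries, lines are means, and within each gene the genotypes run nrpd1-/-, mat nrpd1+/- and pat nrpd1+/-; at TAS1B the nrpd1-/- points lie at 68.3 to 76.1% for 22 nt and 12.6 to 19.8% for 24 nt, apart from those of both heterozygotes.

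The share of each copy in the reads of the miR173-triggered family is a second measure without scaling. TAS1B made up 0.395, 0.712 and 0.431% of the 24-nt reads at TAS1A, TAS1B, TAS1C and TAS2 in nrpd1-/-, 6.91, 6.56 and 5.84% in mat nrpd1+/- and 2.88 and 3.51% in pat nrpd1+/-. At 23 nt it made up 2.30, 2.73 and 2.20% in nrpd1-/-, 12.1, 11 and 11.1% in mat nrpd1+/- and 5.99 and 6.19% in pat nrpd1+/-. In both classes the order was nrpd1-/-, pat nrpd1+/- and mat nrpd1+/- with no overlap. At 22 nt the means were closer, with nrpd1-/- at 1.26 ± 0.0899% (SD, n = 3), mat nrpd1+/- at 0.993 ± 0.154% (SD, n = 3) and pat nrpd1+/- at 1.27 ± 0.511% (SD, n = 2), and at 21 nt mat nrpd1+/- had 1.97 ± 0.0827% and pat nrpd1+/- 1.81 ± 0.636%. At 22 nt, too, nrpd1-/- (1.15 to 1.31%) and mat nrpd1+/- (0.830 to 1.14%) did not overlap, there with nrpd1-/- the higher, while pat nrpd1+/- overlapped with both, and at 21 nt the heterozygotes overlapped. The part of reads shared with MIR5636 or with TAS1A in these values was not tested.

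TAS2 took 42.9, 41.4 and 46.8% of the family's 24-nt reads in nrpd1-/-, 31.3, 30.8 and 37.1% in mat nrpd1+/- and 44.0 and 44.5% in pat nrpd1+/-. The mat nrpd1+/- libraries were the lowest, and nrpd1-/- overlapped with pat nrpd1+/-. TAS1C took means of 37.9, 38.3 and 30.3% and TAS1A of 17.9, 22.2 and 22.3% in nrpd1-/-, mat nrpd1+/- and pat nrpd1+/-.

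**Figure D5:**
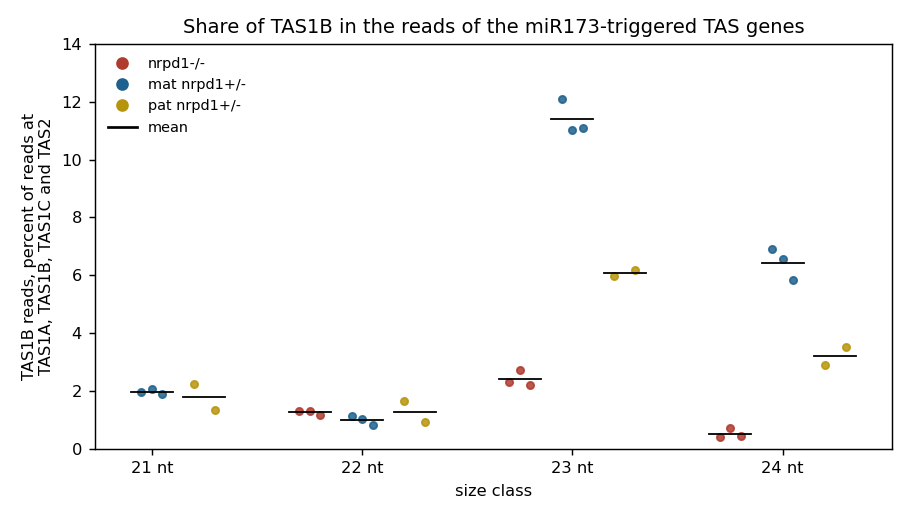
TAS1B reads as a percentage of the reads at TAS1A, TAS1B, TAS1C and TAS2, by size class. Points are libraries, lines are means, and genotypes run nrpd1-/-, mat nrpd1+/- and pat nrpd1+/- with none for nrpd1-/- at 21 nt; all libraries lie within 0.83 to 2.26% at 21 and 22 nt, nrpd1-/- lies above mat nrpd1+/- at 22 nt, and at 23 and 24 nt all 3 genotypes lie apart, with mat nrpd1+/- the highest.

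The sRNA reads at known targets of TAS siRNAs were tallied in the same fits. Targets of trans-acting siRNAs can themselves give rise to secondary siRNAs, which is well known for PPR genes. All 20 listed targets were in the tables, but reads at near-identical PPR genes can be placed at any of several copies, so values of single PPR genes are uncertain. In mat nrpd1+/- against pat nrpd1+/-, 4 of 12 targets tested were lower and none was higher at 21 nt, 6 of 11 were lower at 22 nt, 5 of 9 at 23 nt and 5 of 10 at 24 nt. The background shares called lower were 9.65, 9.57, 7.6 and 5.34% of genes in the same classes. The median log2 fold changes of the targets were -0.82, -1.28, -1.23 and -1.03, beside 0.07, 0.01, 0.04 and -0.05 over all genes tested. These calls and values, and those of single targets below, are with TMM scaling only. With genic reads as library sizes the medians over all genes tested moved to 0.46, 1.31, 0.74 and 0.83. The targets are not given under that scaling, and their values between the heterozygotes depend on it.

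ARF4, a target of TAS3 siRNAs that acts in leaf polarity, had 12, 5 and 9 reads of 21 nt in mat nrpd1+/- and 197 and 59 in pat nrpd1+/-. At 24 nt ARF4 had 20, 23 and 27 reads in mat nrpd1+/- and 334 and 72 in pat nrpd1+/-. ARF4 reads fell by 3.41 on the log2 scale at 21 nt (SE 0.43; edgeR adjusted p = 7.09e-05) and by 2.75 at 24 nt (SE 0.32; adjusted p = 4.22e-05), so the direction was opposite to that of TAS3 at 21 nt. In nrpd1-/- ARF4 had 6, 10 and 7 reads of 24 nt, below both heterozygotes, although with TMM scaling its value was above mat nrpd1+/- (2.18, adjusted p = 0.000501). At 22 nt ARF4 was called lower in nrpd1-/- than in pat nrpd1+/-, at -2.42 (adjusted p = 0.00134). ARF3 (ETT) and ARF2 had at most 14 and 41 reads of 21 nt in a library.

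The PPR gene AT1G63080 had 2345, 2162 and 1972 reads of 21 nt in mat nrpd1+/- and 11798 and 6752 in pat nrpd1+/-, and fell by 1.71 on the log2 scale (SE 0.24; edgeR adjusted p = 0.000221). AT1G62670 (RPF2), which acts in processing of mitochondrial RNA, had 485, 452 and 470 in mat nrpd1+/- and 2318 and 1069 in pat nrpd1+/- (-1.42, adjusted p = 0.00283), and AT1G62590 had 382, 399 and 378 against 1879 and 834 (-1.38, adjusted p = 0.00416). In these 3 genes every mat nrpd1+/- library lay well below both pat nrpd1+/- libraries. Each was also called lower at 22 nt, as were AT1G63400, AT1G63150 and ARF4. At 23 nt AT1G62590, AT1G63080, AT1G62910, AT1G63150 and ARF4 were called lower, and at 24 nt AT1G62590, AT1G63080, AT1G63130, AT1G63150 and ARF4. Of the targets, 9 PPR genes lie within 200 kb of NRPD1 (24.98 to 175.4 kb), where mutant Ler mothers may carry Col-0 chromatin, and the part of this in their values was not tested.

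Between nrpd1-/- and mat nrpd1+/-, all 10 targets tested at 22 nt, all 8 at 23 nt and all 12 at 24 nt were called higher with TMM scaling, against 25.6, 23.1 and 26.9% of genes. At 22 and 23 nt these were PPR genes of the chromosome 1 cluster, with ARF2 at 22 nt, and at 24 nt also AT5G41170, ARF2 and ARF4. Against pat nrpd1+/-, 1 of 11 (AT1G62860) was higher and 1 (ARF4) lower at 22 nt, against 7.67% and 38.5% of genes. At 23 nt 5 of 10 were higher (AT1G62860, AT1G62910, AT1G62930, AT1G63130 and AT1G63150), against 22.6% of genes, and at 24 nt 10 of 11, all but ARF4, against 31.9%. The miRNA triggers moved alike at 24 nt, where 3 of 3 tested entries, those of both miR173 arms and of miR390a-5p, were called higher in nrpd1-/- than in either heterozygote (26.9% of genes against mat nrpd1+/- and 31.9% against pat nrpd1+/-), with log2 fold changes from 3.47 to 5.15. These lists shift with the scaling as the TAS genes do.

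The genes of the TAS pathway carried few sRNAs, which do not measure their mRNA. Of 13 genes for RDR6, SGS3, DCL4 and their partners, 2 had enough reads to be tested between the heterozygotes at 21 nt, 2 at 22 nt, 0 at 23 nt and 7 at 24 nt, and none of those was called by edgeR, against 13.1, 11.9 and 8.13% of genes at 21, 22 and 24 nt. AGO1 is the Argonaute that loads miR173. With TMM scaling it was called higher in nrpd1-/- than in mat nrpd1+/- at 22 nt (1.80), 23 nt (2.50) and 24 nt (4.41), on the log2 scale. The shares of genes called higher there were 25.6, 23.1 and 26.9%. Over pat nrpd1+/- it was called at 22 nt (1.15), 23 nt (1.75) and 24 nt (3.75), against 7.67, 22.6 and 31.9% of genes. Other scalings are not given for AGO1 and DCL1, and at 24 nt the choice moved the all-gene medians by 4.24 and 3.92. AGO1 had 159, 194 and 157 reads of 22 nt in nrpd1-/-, 68, 56 and 76 in mat nrpd1+/- and 132 and 77 in pat nrpd1+/-, so that nrpd1-/- was above all others in raw reads too. DCL1, which makes miRNAs, was called higher in nrpd1-/- than in mat nrpd1+/- at 22 nt (1.01, edgeR adjusted p = 0.0281).

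The genes whose 22-nt sRNAs most resembled the mean of the 5 best-covered TAS genes over the 8 libraries were AT1G12300 (Pearson r 0.970), AT1G63400 (0.968), AT1G62930 (0.959), AT3G44570 (0.954) and AT2G25025 (0.951), out of 387 genes with 50 or more reads on average. AT1G63400 and AT1G62930 are PPR targets of the list above. The libraries share depth and composition across genes, and these correlations are a description only.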

How the data were processed

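Read ends and adapters (Cutadapt) were trimmed by the authors, who collapsed PCR duplicates by random adapter bases and used Bowtie 1.2.2 against TAIR10 joined with Ler pseudo-chromosomes, keeping 1 best alignment. The deposited gene tables hold raw read counts per Araport11 gene by size class, with 427 mature miRNA entries at 21 and 24 nt. The strand setting of the counting is not given in the sources used here. Deposited normalized signal columns, and the authors' fold changes and p-values from DESeq2, were not used, nor were 344 per-library columns, among them those of wild-type libraries. Counts that the authors gave as unassigned or ambiguous reads (0.349 to 3.05% ambiguous, 51.8 to 89.2% in no gene) stayed out of the tests. Only 12 of 30 deposited files were used. In the 21-nt nrpd1-/- table the 31766 entries that repeat the pat nrpd1+/- table were left out.

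Counts were tested per size class and pair of genotypes with edgeR 4.0.16 (quasi-likelihood, filterByExpr, TMM, Benjamini-Hochberg over all genes tested), which was checked on simulated counts. A call needed an adjusted p of 0.05 or less and 2-fold. CPM are counts scaled to 1000000 reads after TMM. Size shares needed 20 reads of 22 to 24 nt per library, which 5 of 8 genes had, and were compared by exact 2-sided permutation tests. Replicates are seed pools from separate parents. Every TAS gene is reported, with pathway genes that were called and the 5 genes most alike by log2(CPM + 1) at 22 nt. The members and lists were chosen with earlier results of these data known.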

Additional observations from a re-analysis of the deposited data

How the results depend on the processing

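The count of TAS genes called held in some settings and moved in others, and a count that held could rest on another gene. With DESeq2 1.42.0 it was 1 for 21-nt mat against pat nrpd1+/- (2 with edgeR), 0 for 22-nt nrpd1-/- against mat (2) and against pat (1), 0 for 23-nt mat against pat (1), 1 for 23-nt nrpd1-/- against mat (2) and 1 against pat (0). With genic reads as library sizes the counts were 1 and 0 at 21 nt and 23 nt for mat against pat, 0 at 22 nt for nrpd1-/- against mat and 1 at 24 nt for mat against pat (0), and with all reads of the class they were 1 and 0 at 21 and 23 nt for mat against pat, 6 and 3 at 22 nt for nrpd1-/- against mat and pat, and 4 and 4 at 23 nt. Without a filter they were 0 for 22-nt mat against pat, nrpd1-/- against mat and nrpd1-/- against pat, 0 for 23-nt mat against pat and 1 for 23-nt nrpd1-/- against mat. One fit over the 3 genotypes gave 0 for 23-nt mat against pat, and miRNA library sizes gave 2 and 2 (4 and 4) at 24 nt for nrpd1-/- against mat and pat. The replicate block gave 1, 0 and 0 at 21, 22 and 23 nt for mat against pat and changed no other count. The labels share only numbers, and no comparison had a correlation of deviations over 0.1 in every same-numbered pair. Leaving out 1 library gave counts of 0 to 2 at 21 nt, 0 to 3 at 22 nt, 0 to 1 at 23 nt and 0 to 1 at 24 nt for mat against pat, 0 to 4 at 22 nt and 1 to 2 at 23 nt for nrpd1-/- against mat, and 0 to 1 at 22 nt for nrpd1-/- against pat.

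Single genes also changed sign, and the cause was not tested. Their log2 fold changes after the change are given. With genic reads as library sizes, they were TAS1B 0.10 and TAS1C 0.036 for 21 nt, mat against pat, TAS1B 0.014, TAS1A 0.27, TAS2 0.39 and TAS3C 0.11 for 22 nt, mat against pat, TAS3C -0.0068 for 22 nt, nrpd1-/- against mat, TAS1B 0.64, TAS1C 0.30 and TAS3C 0.10 for 22 nt, nrpd1-/- against pat, TAS1A 0.16, TAS1C 0.24 and TAS3 0.57 for 23 nt, mat against pat, TAS1A 0.30 and TAS1C 0.62 for 24 nt, mat against pat, TAS1B -1.74 for 24 nt, nrpd1-/- against mat, TAS1B -0.45 for 24 nt, nrpd1-/- against pat. With DESeq2, they were TAS3 -0.14 and TAS3C -0.18 for 22 nt, nrpd1-/- against mat, TAS2 -0.076 for 22 nt, nrpd1-/- against pat, TAS3 0.072 for 23 nt, mat against pat, TAS1A -0.97, TAS1C -0.69 and TAS3 -0.84 for 23 nt, nrpd1-/- against mat, TAS1A -0.65, TAS1C -0.28, TAS2 -0.16 and TAS3 -0.20 for 23 nt, nrpd1-/- against pat, TAS1C 0.018 for 24 nt, mat against pat, TAS1B -1.44 for 24 nt, nrpd1-/- against mat, TAS1B -0.72 for 24 nt, nrpd1-/- against pat. With all reads of the class as library sizes, they were TAS1B 1.10, TAS1C 0.85 and TAS3C 0.61 for 22 nt, nrpd1-/- against pat, TAS3 0.028 for 23 nt, mat against pat, TAS1B 0.52 for 23 nt, nrpd1-/- against mat, TAS1B 0.99 for 23 nt, nrpd1-/- against pat, TAS1C 0.11 for 24 nt, mat against pat. With one fit over the genotypes, they were TAS1B 0.061 for 22 nt, nrpd1-/- against pat, TAS1B -0.21 for 24 nt, nrpd1-/- against mat. With the replicate block, they were TAS1B 0.078 for 22 nt, nrpd1-/- against pat, TAS3 0.17 for 23 nt, mat against pat. With no filter, they were TAS2 -0.025 for 22 nt, nrpd1-/- against pat, TAS3 0.039 for 23 nt, mat against pat, TAS1A -0.38, TAS1C -0.10 and TAS3 -0.24 for 23 nt, nrpd1-/- against mat, TAS1A -0.35 for 23 nt, nrpd1-/- against pat, TAS1C 0.021 for 24 nt, mat against pat, TAS1B -1.47 for 24 nt, nrpd1-/- against mat, TAS1B -0.74 for 24 nt, nrpd1-/- against pat. With miRNA reads as library sizes, they were TAS1C 0.050 for 24 nt, mat against pat, TAS1B -3.72, TAS1A -0.41, TAS1C -0.11 and TAS3 -1.18 for 24 nt, nrpd1-/- against mat, TAS1B -3.0, TAS1A -0.68, TAS1C -0.061, TAS2 -0.39 and TAS3 -1.79 for 24 nt, nrpd1-/- against pat. With scaling by miR173-5p reads (chosen after seeing the data), they were TAS1B 0.044 and TAS1C 0.031 for 21 nt, mat against pat. Leaving out 1 library turned the log2 fold changes of TAS1B, 22 nt, nrpd1-/- against pat (-0.40 to 0.37), TAS1C, 22 nt, nrpd1-/- against pat (-0.50 to 0.013), TAS2, 22 nt, nrpd1-/- against pat (-0.15 to 0.16), TAS3, 23 nt, mat against pat (-0.33 to 0.17), TAS1A, 23 nt, nrpd1-/- against mat (-0.35 to 0.16), TAS1C, 23 nt, nrpd1-/- against mat (-0.16 to 0.46), TAS3, 23 nt, nrpd1-/- against mat (-0.36 to 0.31), TAS1A, 23 nt, nrpd1-/- against pat (-0.31 to 0.23), TAS1B, 24 nt, nrpd1-/- against mat (-0.26 to 0.78). It also turned the differences in 24-nt share of TAS1A in the gene, mat minus pat (-6.62 to 7.44), TAS1A in the gene, nrpd1-/- minus mat (-4.59 to 0.755), TAS1A in the gene, nrpd1-/- minus pat (-8.22 to 5.84), TAS1A in the family, mat minus pat (-3.14 to 2.94), TAS1C in the family, nrpd1-/- minus mat (-1.61 to 0.314), TAS2 in the family, nrpd1-/- minus pat (-2.09 to 0.617).

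Low counts limit TAS3B and TAS4 in every class and TAS3 and TAS3C outside 21 nt, and having 2 pat nrpd1+/- libraries limits each comparison with that genotype. No exact test over libraries reached below 0.1. The upper limit given for TAS4 covers counting error only, whereas the SD and SE values also include variation between libraries.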
